A study of Homo sapiens with 6 samples.

Results

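The 38 genes described here cover the antioxidant side of iron biology. The set is a list of gene names from the NRF2 pathway, glutathione metabolism, heme degradation and ferroptosis, and no measured value is part of the rule that defines it. All 38 were found among the 62252 genes to which transcript estimates could be assigned.

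RNA was measured in K562 cells, a human erythroleukemia line, after knockdown of PCBP1, an RNA-binding protein with a preference for runs of C that also serves as a cytosolic iron chaperone. The comparison asks how loss of PCBP1 alters the transcriptome. One group received lentivirus with a short hairpin RNA against PCBP1 (shPCBP1) and the other a hairpin against luciferase (shCtrl), which has no target in human cells. Both groups were exposed to virus overnight with polybrene at 8 µg/ml, and both were then kept for 4 days in puromycin at 3 µg/ml, so the controls carry a vector and a drug selection too. Each group held 3 libraries of polyadenylated RNA. The labels do not say whether the libraries of a group came from separate cultures, so p-values measure the spread between these libraries. No other hairpin against PCBP1 was analysed here.

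NRF2, encoded by NFE2L2, is the transcription factor that drives antioxidant genes. It is held low by KEAP1, which presents it for degradation, and it binds DNA as a partner of small MAF proteins at sites where the heme-sensing repressor BACH1 competes with it. Its targets make glutathione from cystine, recycle thioredoxin, supply NADPH and break down heme. Ferroptosis is an iron-dependent death in which membrane lipids are peroxidised, and glutathione and several lipid and quinone enzymes set how readily it occurs.

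The libraries held between 67066747 and 140522444 estimated counts, and the 2 deepest were shCtrl libraries. PCBP1 itself had a normalized count of 38925 ± 1454 (SD, n = 3) in shCtrl and 7041 ± 362 in shPCBP1, or 18.1% of the control level. K562 and erythroid markers were all expressed, with summed levels of 32911 to 39879 TPM in shCtrl and 37650 to 39536 TPM in shPCBP1, and 5 of the 15 rose while 1 fell. TPM is a transcript abundance scaled for length and depth. Of 12 megakaryocyte markers, 6 were tested, 3 rose, 1 fell and 2 were at 0 in every library, with a summed 151 to 164 TPM in shCtrl and 162 to 179 TPM in shPCBP1. Granulocyte and monocyte markers, of which 3 of 12 were tested, summed to 48.8 to 53.8 TPM in shCtrl and 46.9 to 55.5 TPM in shPCBP1. Lymphocyte markers, of which 2 of 12 were tested, summed to 66.0 to 77.5 TPM in shCtrl and 48.9 to 65.2 TPM in shPCBP1, and these 5 genes did not pass. Of 10 markers of the kidney line that packaged the virus, 7 were tested, 1 rose and 1 fell. They summed to 858 to 896 TPM in shCtrl and 834 to 877 TPM in shPCBP1, and only 5 had a mean over 1 TPM. In these lists, rose and fell mean an adjusted p under 0.05 in DESeq2. Over all genes tested, 17.7% rose and 13.5% fell by that measure. The part of any marker list in the results that follow was not tested. In bulk RNA, fewer cells of a type and less RNA per cell cannot be told apart.

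Most of the set was abundant and shifted by small amounts. Of the 38 genes, 37 could be tested and 19 passed, which means a Benjamini-Hochberg adjusted p under 0.05 in DESeq2 over all genes tested, with 7 higher and 12 lower in shPCBP1. Over all genes tested, 31.2% passed, 17.7% higher and 13.5% lower. Of the 37, 18.9% passed higher and 32.4% lower. The test sees smaller changes in abundant genes, and 36 of the 37 had a mean normalized count over 1000. Among all genes at that level, a background chosen after these values were seen, 44.9% passed, 28.7% higher and 16.2% lower. Of the 36 genes of the set at that level, 18 passed, 19.4% higher and 30.6% lower. The share that passed was therefore near the background, and the share that passed lower was above it. The median log2 fold change was -0.02 over the 37 and 0.00 over all genes tested.

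The split by direction differed between tools. By edgeR, 16 of the 37 passed, 4 higher and 12 lower, so the higher share of the passing genes was 25.0% in place of 36.8%. Over all genes that edgeR tested, 15.9% passed, 8.27% higher and 7.65% lower, and among those with a mean over 1000 it was 38.2%, 22.5% higher and 15.7% lower. At that level the set had 15 of 36 passing in edgeR (41.7%), 11.1% higher and 30.6% lower. Library groups did not overlap for 19 of the 37, 8 higher and 11 lower. Over all genes tested the groups did not overlap for 44.2%, and for 56.1% of those with a mean over 1000. Only 5 of the passing genes had an absolute log2 fold change of at least 0.3, and all 5 were lower: BLVRB, PRDX5, GCH1, SAT1 and ALOX5. That direction depends on the cut, since GCLC, a passing rise, lay just under it at 0.297. With transcript length offsets GCLC was at 0.377. The share of all genes that met this cut is not given, so neither the count nor its direction can be compared with other genes. ALOX5 alone met the stricter thresholds of the study, which add a log2 change of more than 1 in either direction and a mean count above 10. Of all genes tested, 1.37% met them, and 0.989% met them as lower.

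**Figure D1:**
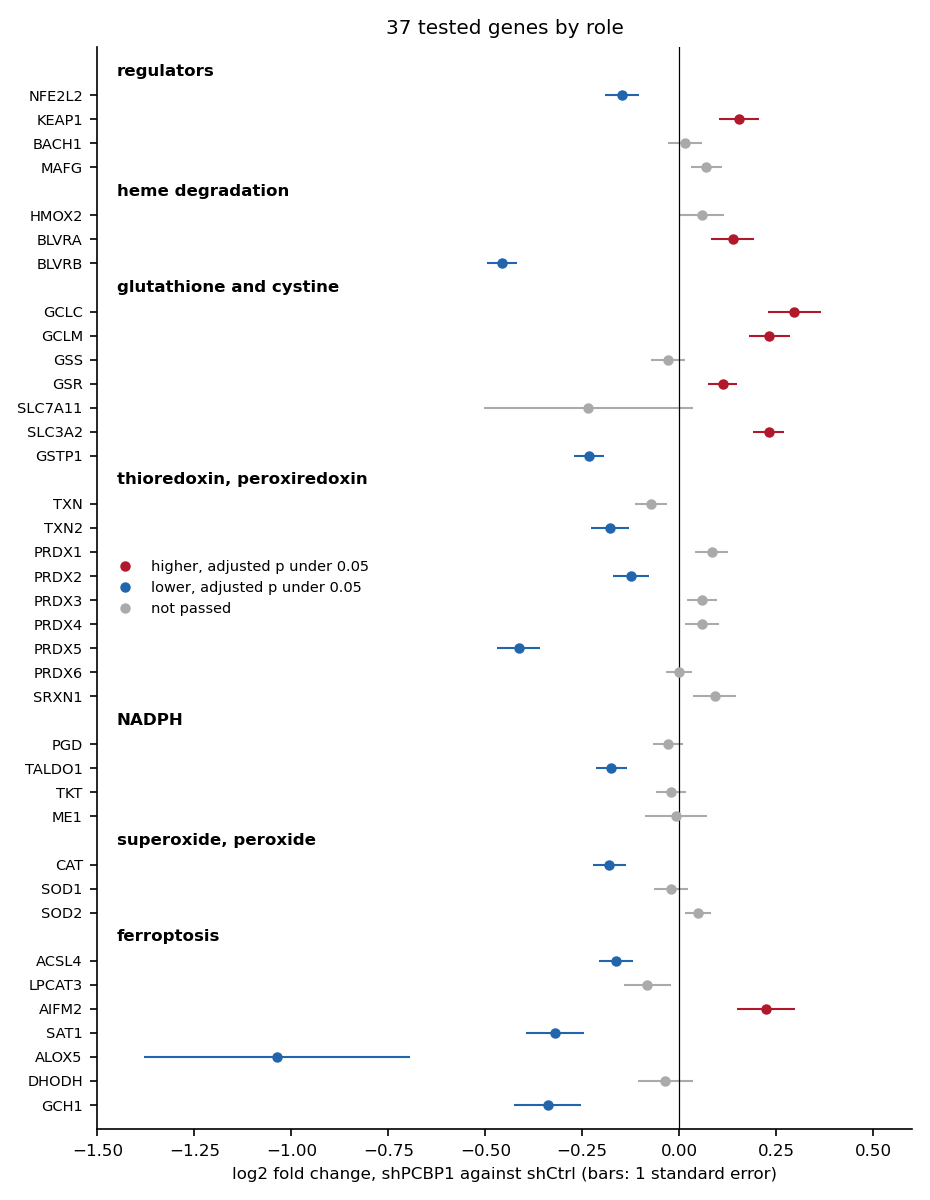
Log2 fold change in shPCBP1 against shCtrl (horizontal axis) for the 37 tested genes, in rows grouped by role. Points are DESeq2 estimates from 3 libraries per group, bars are 1 standard error, and colour shows an adjusted p under 0.05 with a higher (7 genes) or lower (12 genes) level. Most points lie near 0, ALOX5 lies farthest out at -1.04, and SLC7A11 has a wide bar.

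In levels per length the set spanned a wide range in shCtrl. GSTP1, a glutathione transferase, was highest at 1313 ± 41.2 TPM (SD, n = 3), above PRDX1 at 649 ± 26.6 TPM. SOD1 at 557 ± 25.2 TPM and BLVRB at 547 ± 19.4 TPM followed and did not differ beyond their spread. TALDO1 at 468 TPM, TXN at 466 TPM and PRDX6 at 475 TPM lay within the spread of one another. At the other end were ME1 (8.93 ± 0.461 TPM), GCLC (7.82 ± 0.477 TPM), GCH1 (6.34 ± 0.183 TPM), SLC7A11 (3.52 ± 1.05 TPM) and ALOX5 (1.58 ± 0.558 TPM). In shPCBP1, BLVRB was at 381 ± 10.2 TPM, below TALDO1 at 405 ± 3.42 TPM, and the order of GSTP1 and PRDX1 was kept at 1081 and 675 TPM.

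**Figure D2:**
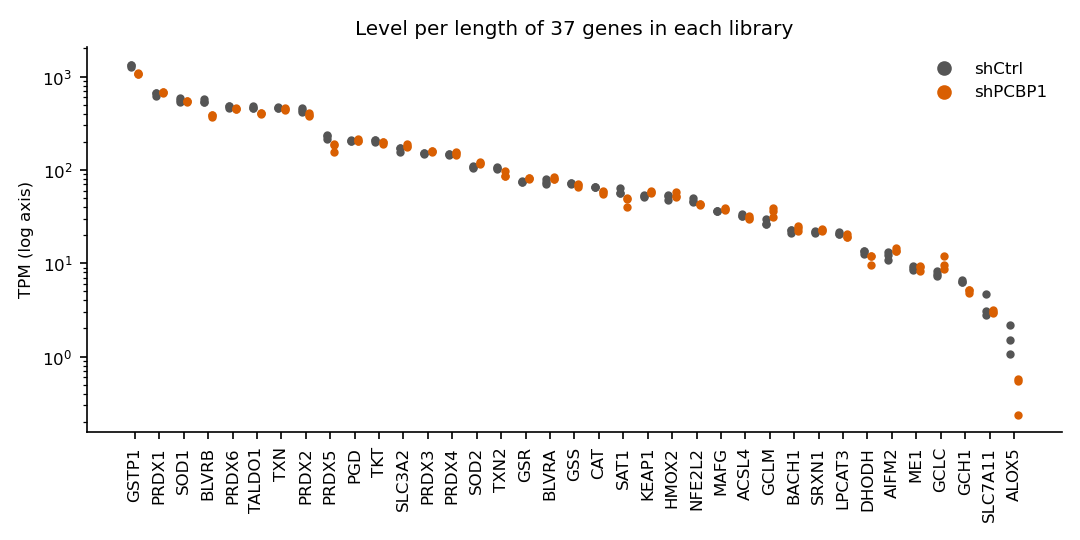
Level in TPM (log axis) of 37 genes in each library, ordered by the shCtrl mean. Grey points are the 3 shCtrl libraries and orange points the 3 shPCBP1 libraries. GSTP1 stands highest at over 1000 TPM in every library and ALOX5 lowest, while HMOX1, with counts in 1 library only, is not drawn.

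Regulators moved little. Normalized counts, which are scaled to a common library size, were 8652, 9126 and 8711 for NFE2L2 with shCtrl and 8097, 8035 and 7768 with shPCBP1. All shPCBP1 libraries lay below all shCtrl libraries. It fell by 0.15 on the log2 scale (SE 0.0433, DESeq2 adjusted p 0.00351). With transcript length offsets the fall was 0.13 and did not pass (DESeq2 adjusted p 0.0642).

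KEAP1, the adaptor that targets NRF2 to its ubiquitin ligase, had 9723, 8965 and 10185 in the shCtrl libraries, as normalized counts, and 11034, 10945 and 10165 in the shPCBP1 libraries. The groups overlapped, since shPCBP1 replicate 3 lay below shCtrl replicate 3. Its log2 fold change was 0.15 (SE 0.0521, DESeq2 adjusted p 0.0128), but edgeR gave an adjusted p of 0.0598. Without shCtrl replicate 2, shPCBP1 replicate 1 or shPCBP1 replicate 2 the DESeq2 adjusted p was 0.0908, 0.0885 and 0.107.

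BACH1, the heme-sensing repressor, stood at 8074, 7800 and 8202 normalized counts in the control libraries and at 7801, 8288 and 8248 after knockdown. The groups overlapped, with a log2 difference of 0.01 (SE 0.0449, DESeq2 adjusted p 0.850). MAFG, a small MAF partner, differed by 0.07 (SE 0.0395) and did not pass (DESeq2 adjusted p 0.176).

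Heme oxygenases open the heme ring and release iron, and biliverdin reductases reduce forms of biliverdin. HMOX1, the inducible oxygenase and a classical NRF2 and BACH1 target, was close to silent. It had 3 estimated counts in shCtrl replicate 1 and 0 in the other 5 libraries. A count of 0 allows up to 3 counts, which is 0.0214 to 0.0448 CPM over these libraries, counting error only. Its summed count was under the minimum of 10, so it was not tested, and without that minimum DESeq2 gave no adjusted p. A difference was not detectable at this depth. Its neighbours were expressed, TOM1 with a mean of 1784 and MCM5 with a mean of 18682 normalized counts. Of 19991 protein-coding genes, 2919 (14.6%) had a summed estimated count of at most 3. The neighbours and this comparison were chosen after the HMOX1 values were seen. HMOX2, the constitutive oxygenase, was at 51.5 ± 3.27 TPM in shCtrl and did not pass (log2 fold change 0.06, SE 0.0574, DESeq2 adjusted p 0.497).

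BLVRB, which reduces biliverdin and flavins with NADPH and is abundant in erythroid cells, had the smallest adjusted p of the set. Normalized counts were 24652, 23838 and 25731 with shCtrl and 17820, 18368 and 17917 with shPCBP1. Every shPCBP1 library was lower than every shCtrl library, by 27.1% on average. The log2 fold change was -0.46 (SE 0.0382, DESeq2 adjusted p 1.52e-30), and edgeR gave an adjusted p of 5.49e-07. BLVRA, the main biliverdin reductase, differed the other way by 0.14 (SE 0.0544, DESeq2 adjusted p 0.0392). That call held in 5 of 15 alternative settings. Among the others, edgeR gave an adjusted p of 0.0999, and DESeq2 gave 0.165 and 0.133 without shCtrl replicates 1 and 2, and 0.198 and 0.0842 without shPCBP1 replicates 1 and 2.

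Of the 7 genes of glutathione synthesis, recycling and cystine uptake, 4 passed higher and 1 passed lower. Those 4 were part of the 7 rises in the whole set. Over all genes tested, 17.7% passed higher and 13.5% lower. At a mean normalized count over 1000 these shares were 28.7% and 16.2%. GCLC, the catalytic subunit of glutamate-cysteine ligase and the rate-limiting step of glutathione synthesis, was measured at normalized counts of 1840, 1812 and 1884 with shCtrl and 2170, 2302 and 2333 with shPCBP1. The groups did not overlap. It rose by 0.30 on the log2 scale (SE 0.0685, DESeq2 adjusted p 0.000125), and reads may be shared with an unnamed gene on the same strand and with GCLC-AS1 on the other.

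GCLM, the modifier subunit of the same enzyme, had 7576, 7113 and 8172 in the shCtrl libraries, as normalized counts, and 9030, 9150 and 8691 in the shPCBP1 libraries. Again all shPCBP1 libraries were higher. It rose by 0.23 (SE 0.0527, DESeq2 adjusted p 9.02e-05). Both ligase subunits also passed in edgeR, with adjusted p of 0.00295 and 0.00482. GSS, which adds glycine in the last step of synthesis, had a log2 difference of -0.03 (SE 0.0437, DESeq2 adjusted p 0.669).

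GSR, the reductase that regenerates glutathione with NADPH, stood at 17071, 16615 and 17468 normalized counts in the control libraries and at 18978, 18305 and 17993 after knockdown. No shPCBP1 library overlapped the shCtrl range, but the step was small, at 0.11 (SE 0.0378, DESeq2 adjusted p 0.0132). It did not pass in edgeR (adjusted p 0.0812), nor in DESeq2 without shPCBP1 replicate 1 (adjusted p 0.0743).

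The cystine importer is a dimer of SLC7A11, the transport subunit, and SLC3A2, a heavy chain that also serves amino acid exchangers. SLC7A11 was measured at normalized counts of 2066, 3246 and 1821 with shCtrl and 2055, 1900 and 2106 with shPCBP1. The high value of shCtrl replicate 2 set the difference. The log2 fold change was -0.23 (SE 0.270, DESeq2 adjusted p 0.568), and without that library it was 0.057 (DESeq2 adjusted p 0.702). SLC3A2 rose from 22173 ± 958 to 26007 ± 809 normalized counts (SD, n = 3), by 0.23 on the log2 scale (SE 0.0407, DESeq2 adjusted p 2.59e-07).

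GSTP1, which joins glutathione to electrophiles, was the member of this group that fell, from 52490 ± 2203 to 44690 ± 1592 normalized counts. The log2 fold change was -0.23 (SE 0.0392, DESeq2 adjusted p 6.37e-08), with no overlap between groups.

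**Figure D3:**
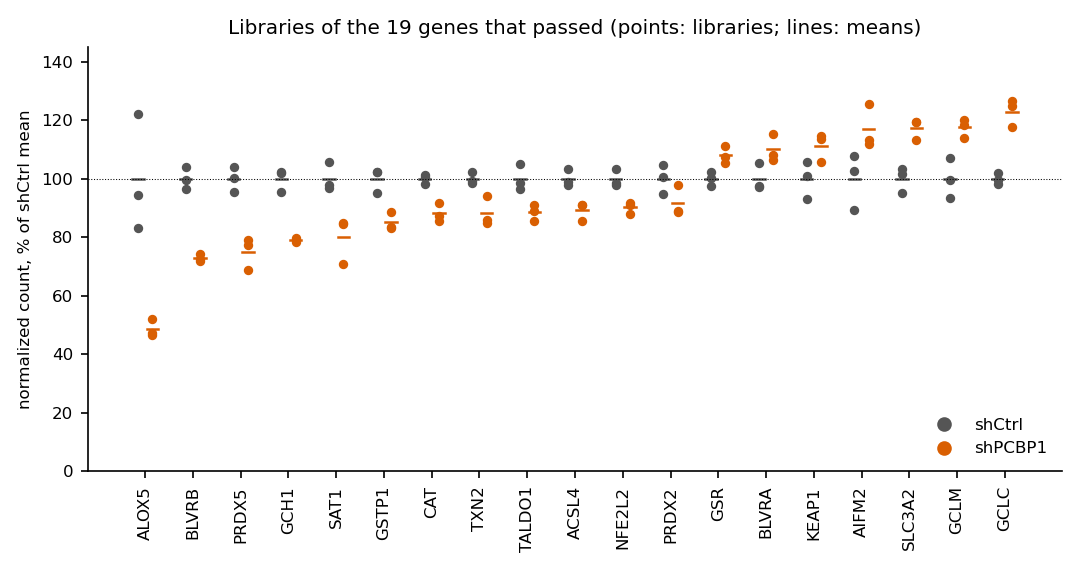
Normalized count of each library as a percentage of the shCtrl mean (vertical axis) for the 19 genes that passed, ordered by fold change. Points are libraries, short lines are group means, grey is shCtrl and orange is shPCBP1. The groups separate for BLVRB, PRDX5, GCLC and GCLM and overlap for KEAP1 and PRDX2.

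NRF2 and its MAF partner recognise the antioxidant response element, whose core is TGACNNNGC. This core was searched on both strands in RefSeq promoter windows on GRCh38.p14 that run from 250 bases before to 50 bases after each start, 300 bases in all. Windows were given for 28 of the 38 genes. The core occurred in 7 of them (25.0%) and in 4384 of 27305 genes with a window (16.1%). The variant TGACTCAGC, picked after the matches were seen, occurred in 4 of the 28 (14.3%) and in 188 of all genes (0.689%), and it overlaps the AP-1 site TGACTCA. A match is a description of letters and does not show binding. The 4 TGACTCAGC matches and the match of GCLM are shown, 27 bases each on the strand that reads the core, which is in capitals.
GCLM chr1:93909447-93909473, minus-strand gene, match in a non-coding exon, 25 bases before the start: ggaagacaaTGACTAAGCagaaatcgt
SLC3A2 chr11:62881653-62881679, plus-strand gene, match in an intron of longer transcripts, 28 bases before the start: gagggtgggTGACTCAGCgtcctcctt
GSTP1 chr11:67583737-67583763, plus-strand gene, match in a non-coding exon, 57 bases before the start: ccggcgccgTGACTCAGCactggggcg
ME1 chr6:83431171-83431197, minus-strand gene, match outside annotated genes, 128 bases before the start: ctcctgccaTGACTCAGCgcttctcgc
AIFM2 chr10:70132830-70132856, minus-strand gene, match in a non-coding exon, 13 bases before the start: ggcggggcgTGACTCAGCactcgtgct

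The exon and intron labels come from GENCODE, in which some transcripts start farther upstream than the RefSeq start used here. Any overlap with an exon gave the label. For GCLM only the edge of the match touches the exon, since the annotated gene begins at 93909456 on the minus strand. Most of the GCLM match lies upstream of that gene. Of the 4 genes with TGACTCAGC, 2 rose (SLC3A2 and AIFM2), GSTP1 fell and ME1 did not pass. PGD and KEAP1 held the core with other letters in the middle, and ME1 held another such match after its start. These matches are not shown. Windows were not given for SLC7A11, HMOX1, GSS, GSR, TXN2, PRDX1, PRDX6, SOD1, ALOX5 and GCH1.

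Peroxiredoxins reduce peroxides with electrons from thioredoxin. Of the 9 genes of thioredoxin and peroxiredoxin function, 3 passed, all lower. Over all genes tested 31.2% passed, and 13.5% passed lower. Among genes with a mean normalized count over 1000 these shares were 44.9% and 16.2%. PRDX5, the peroxiredoxin found in mitochondria, peroxisomes and cytosol, had 9320, 10159 and 9794 in the shCtrl libraries, as normalized counts, and 6710, 7708 and 7554 in the shPCBP1 libraries. The groups did not overlap and the mean was 24.9% lower. The log2 fold change was -0.41 (SE 0.0554, DESeq2 adjusted p 3.19e-12).

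TXN2, the mitochondrial thioredoxin, fell from 9037 ± 182 to 7984 ± 450 normalized counts, by 0.18 (SE 0.0482, DESeq2 adjusted p 0.00130). PRDX2, a major peroxiredoxin of red cells, stood at 24420, 22991 and 25354 normalized counts in the control libraries and at 23694, 21551 and 21514 after knockdown. The groups overlapped, and the log2 difference was -0.12 (SE 0.0466, DESeq2 adjusted p 0.0275). The PRDX2 call was lost in DESeq2 without shCtrl replicate 1 or 3 (adjusted p 0.123 and 0.183), without shPCBP1 replicate 2 or 3 (0.205 and 0.155) and with length offsets (0.0873).

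The other 6 genes did not pass. TXN, the cytosolic thioredoxin, was at -0.07 (DESeq2 adjusted p 0.177) and passed without shPCBP1 replicate 1 (-0.11, adjusted p 0.0418) and with protein-coding genes only (-0.095, adjusted p 0.0379). PRDX1 was at 0.08, PRDX3 and PRDX4 at 0.06 and PRDX6, which also has phospholipase activity, had mean normalized counts of 45319 in shCtrl and 45301 in shPCBP1. SRXN1, which repairs overoxidised peroxiredoxins, was at 0.09 (SE 0.0554, DESeq2 adjusted p 0.216). TXN, PRDX2, PRDX3 and SOD1 have several annotated pseudogene copies, so their counts are uncertain to the extent that reads were split.

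In the pentose phosphate pathway and NADPH supply 1 of 4 genes passed. Over all genes tested 31.2% passed, and 44.9% of those with a mean normalized count over 1000. TALDO1, the transaldolase of the non-oxidative branch, which does not itself form NADPH, fell from 36054 ± 1594 to 31922 ± 991 normalized counts, by 0.18 (SE 0.0397, DESeq2 adjusted p 8.67e-05). PGD, which makes NADPH in the oxidative branch, TKT, the transketolase of the non-oxidative branch, and ME1, the cytosolic malic enzyme, were at -0.03, -0.02 and -0.01 and did not pass.

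CAT, catalase, was measured at normalized counts of 10422, 10102 and 10362 with shCtrl and 9441, 8813 and 9001 with shPCBP1. No shPCBP1 library overlapped the shCtrl range. It fell by 0.18 (SE 0.0424, DESeq2 adjusted p 0.000171). SOD1, the copper and zinc superoxide dismutase, was at -0.02 (DESeq2 adjusted p 0.762). SOD2, the manganese enzyme of mitochondria, was at 0.05 (SE 0.0342, DESeq2 adjusted p 0.311), and with transcript length offsets it was at 0.16 and passed (DESeq2 adjusted p 0.000541).

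Ferroptosis genes divide into those that build oxidisable lipids and those that stop peroxidation. ACSL4, which loads polyunsaturated fatty acids for membrane lipids, had 11201, 11822 and 11318 in the shCtrl libraries, as normalized counts, and 9797, 10436 and 10432 in the shPCBP1 libraries. The groups did not overlap. It fell by 0.16 (SE 0.0431, DESeq2 adjusted p 0.00102), but with transcript length offsets it was at -0.06 (adjusted p 0.422). LPCAT3, which inserts those fatty acids into phospholipids, was at -0.08 and did not pass (SE 0.0601, DESeq2 adjusted p 0.323).

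ALOX5, a lipoxygenase that oxidises polyunsaturated fatty acids, stood at 119, 92.4 and 81.4 normalized counts in the control libraries and at 46.1, 51.0 and 45.7 after knockdown. No shPCBP1 library overlapped the shCtrl range, on low counts: the unscaled estimates were 163, 85 and 124 against 41, 43 and 33. The log2 fold change was -1.04 (SE 0.343, DESeq2 adjusted p 0.0109, edgeR adjusted p 0.0166). With transcript length offsets it was -1.78 (DESeq2 adjusted p 0.000592), and per length the level was 1.58 ± 0.558 TPM in shCtrl and 0.454 ± 0.188 TPM in shPCBP1. Without shCtrl replicate 1 it was -0.86 with no adjusted p, since DESeq2 set the gene aside for low counts.

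SAT1, a polyamine acetyltransferase linked to lipid peroxidation, was measured at normalized counts of 3549, 3837 and 3513 with shCtrl and 2577, 3065 and 3088 with shPCBP1. Every shPCBP1 library was lower. It fell by 0.32 (SE 0.0736, DESeq2 adjusted p 0.000117), and an unnamed gene overlaps it on the same strand.

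AIFM2, also called FSP1, reduces coenzyme Q and so limits lipid peroxidation apart from glutathione. Normalized counts were 3182, 2638 and 3026 with shCtrl and 3697, 3342 and 3301 with shPCBP1. It rose by 0.22 (SE 0.0750, DESeq2 adjusted p 0.0120, edgeR adjusted p 0.0437). DESeq2 gave 0.15 (adjusted p 0.0966) without shCtrl replicate 2 and 0.17 (adjusted p 0.124) without shPCBP1 replicate 1, and with transcript length offsets 0.22 (adjusted p 0.0737).

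GCH1, the first enzyme of tetrahydrobiopterin synthesis, had 1338, 1249 and 1331 in the shCtrl libraries, as normalized counts, and 1034, 1023 and 1042 in the shPCBP1 libraries. The groups lay apart and the shPCBP1 libraries were close together. It fell by 0.34 (SE 0.0863, DESeq2 adjusted p 0.000595). DHODH, which reduces coenzyme Q in mitochondria, was at -0.04 (SE 0.0703, DESeq2 adjusted p 0.763).

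Transcript estimates were examined for the same genes. The set had 389 annotated transcripts, of which 333 had any reads. Of 266 with an adjusted p in DESeq2, 30 passed (11.3%), 13 higher and 17 lower in 15 genes. Of 315 tested by edgeR, 2 passed (0.635%), BLVRB-201 and PRDX5-201. Over all transcripts tested, DESeq2 passed 9.28% and edgeR 0.544%. In simulated data, edgeR recovered 2 of 200 transcripts changed 1.5-fold, and DESeq2 recovered 77 with 1573 false calls. The low edgeR count therefore does not show that few transcripts changed. Single transcripts were read only where their share of the gene was tested. BLVRB-201, the reference BLVRB transcript, was at 504 ± 16.0 TPM in shCtrl and 330 ± 9.08 TPM in shPCBP1. PRDX5-201, the reference PRDX5 transcript, was at 174 ± 12.7 TPM and 121 ± 9.93 TPM.

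Shares of a gene's TPM could be tested for 75 transcripts of 27 genes. A share was called at a limma adjusted p under 0.05 and a difference over 5 percentage points, which 0.68% of all shares met, and 0.782% met the adjusted p alone. In this set 1 was called, BLVRB-201, and 2 met the adjusted p. At an unadjusted p under 0.05 stood 19 of the 75 (25.3%), against 13.7% of all shares. Shares within a gene are linked, since a rise of 1 transcript lowers the rest. The 75 are therefore not independent, and 25.3% is not a share of genes. The share of BLVRB-201 was 91.6%, 93.2% and 91.7% with shCtrl and 86.4%, 86.3% and 86.7% with shPCBP1. The shPCBP1 values were all lower, by 5.68 points (limma adjusted p 0.0245). BLVRB-205, a longer coding form, was higher, at 3.89%, 3.28% and 3.44% with shCtrl and 7.74%, 9.08% and 7.86% with shPCBP1. Its adjusted p was 0.00831 in limma, and its difference of 4.69 points was under the size threshold. Without shCtrl replicate 1 or 3, or any 1 shPCBP1 library, the adjusted p of BLVRB-201 was between 0.0630 and 0.101, and with the replicate number as a block it was 0.160. The adjusted p of BLVRB-205 was 0.142 with the block and 0.117 with no filter on shares.

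BLVRB-205 keeps a 136-base intron (chr19:40458245-40458380, GRCh38) and omits 19 bases of the next exon. Its coding sequence is 735 bases against 618. The sequences that tell both forms apart are shown, 30 bases across the end of the shared exon, with the bases after it in capitals.
BLVRB-201 exon 2 joined to exon 3: cccgcaatgacctcaGTCCCACGACAGTGA
BLVRB-205 exon 2 read into the intron: cccgcaatgacctcaGTACTGAGCCCCCCC

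A transcript of PRDX5 and one of SLC3A2 are also described, although neither passed, and both were chosen after their values were seen. PRDX5-202, which joins exon 1 to exon 4 of PRDX5-201 and so omits 135 and 132 bases, had shares of 16.1%, 13.9% and 17.0% with shCtrl and 20.4%, 24.4% and 23.3% with shPCBP1. The groups did not overlap (limma adjusted p 0.109). The omitted 267 bases leave the reading frame intact, with a coding sequence of 375 bases against 642. The junctions are shown with the second exon of each in capitals.
PRDX5-201 exon 1 joined to exon 2: atggccccaatcaagGTGGGAGATGCCATC
PRDX5-202 exon 1 joined to exon 4 of PRDX5-201: atggccccaatcaagGTTCGGCTCCTGGCT

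PCBP1 binds C-rich RNA, so the 30 bases before these splice sites were read, a choice made after the shares were seen. The median C content of the 30 bases upstream of 163617 internal exons of MANE Select transcripts was 23.3%. The bases before exons 2 and 3 of PRDX5-201 held 46.7% and 43.3% C, above 88.8% and 84.0% of those exons, and the end of the intron kept in BLVRB-205 held 12 C in 30 bases, above 78.4%. Binding of PCBP1 at these sites, and any part of it in the shares, was not tested. Capitals mark runs of 3 or more C.
PRDX5 chr11:64319704-64319733, before exon 2: CCCCCCttaCCCtggagtccttccttctag
PRDX5 chr11:64320631-64320660, before exon 3: ctttgccgaCCCtttgttCCCCttcctcag
BLVRB chr19:40458245-40458274, minus strand, end of the kept intron: cagtgacagccactctctgtCCCCtctaag

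SLC3A2-224, a retained-intron transcript, had shares of 10.9%, 17.5% and 13.3% with shCtrl and 6.47%, 5.30% and 5.90% with shPCBP1. All shPCBP1 values were lower, with a limma adjusted p of 0.0603, and of 0.0350 with a pseudocount of 1 TPM, where its difference of -8.03 points met the call. The whole non-coding share of SLC3A2 was 27.0% ± 3.16 in shCtrl and 16.6% ± 1.69 in shPCBP1 (limma adjusted p 0.104). Of 25 genes tested for a non-coding share, 0 were called by limma and 3 had an unadjusted p under 0.05, SLC3A2, PRDX6 and SAT1. Over all genes, 0.103% were called and 13.5% had such an unadjusted p.

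**Figure D4:**
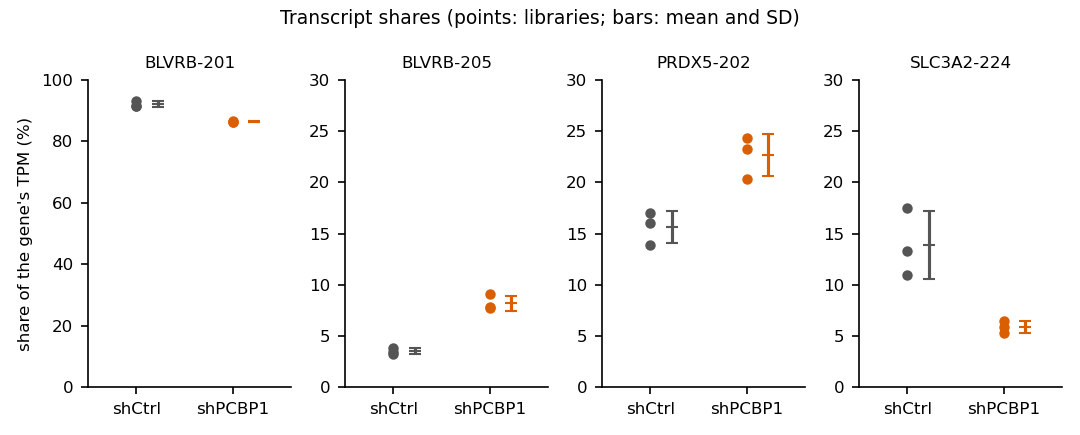
Share of the gene's TPM in percent (vertical axis, from 0) held by BLVRB-201, BLVRB-205, PRDX5-202 and SLC3A2-224 in shCtrl (grey) and shPCBP1 (orange). Points are the 3 libraries of each group and bars are the mean with its SD. Groups do not overlap in any panel, and the call passed for BLVRB-201 only. The first panel runs to 100% and the others to 30%.

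Other genes of these pathways were taken from 6 further lists. Each of their counts stands against 17.7% of all genes passing higher and 13.5% passing lower. Among genes with a mean normalized count over 1000, called abundant here, these shares were 28.7% and 16.2%. The lists were not split by that level. Of 29 glutathione enzymes outside the set, 10 fell (34.5%), 1 rose (3.45%) and 18 did not pass, with a median log2 fold change of -0.11. OPLAH, the oxoprolinase of the glutathione cycle, fell by 0.71 (SE 0.0613, DESeq2 adjusted p 9.81e-29), GGT7 by 0.44 and HAGH, a glyoxalase, by 0.41, while GLRX5, a mitochondrial glutaredoxin, rose by 0.15 but did not pass in edgeR (adjusted p 0.0637). Of 18 thioredoxin and superoxide dismutase genes, 7 passed in DESeq2, all lower (38.9%), with a median of -0.12. These included TXNIP, the inhibitor of thioredoxin, down by 0.54, CCS, the copper chaperone of SOD1, down by 0.39, and TXNDC12, down by 0.38. Of 16 transsulfuration and NADPH genes, 4 fell (25.0%) and 1 rose (6.25%). IDH2, the NADPH-linked isocitrate dehydrogenase of mitochondria, fell by 0.71 (SE 0.0534, DESeq2 adjusted p 1.06e-37), and AHCY by 0.26, while MTHFD1 rose by 0.15.

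Of 15 further NRF2 regulators, 6 rose (40%) and 2 fell (13.3%). BACH2, the relative of BACH1, rose by 0.76 (SE 0.0988, DESeq2 adjusted p 9.27e-13), GSK3A, a kinase that marks NRF2 for degradation, by 0.46 and BTRC, the ligase subunit that reads that mark, by 0.29. DPP3, a KEAP1 partner, fell by 0.18 and NFE2L3 by 0.16. Of 23 further NRF2 targets, 3 rose (13.0%) and 4 fell (17.4%). These shares were near those of all genes, while the rising share was below the 28.7% of abundant genes. ABCB6 fell by 0.45 and OSGIN1 by 0.59, and TRIM16 rose by 0.44, CBR1 by 0.23 and AKR1C1 by 0.22.

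Of 34 further ferroptosis genes, 7 rose (20.6%) and 4 fell (11.8%). These shares were also near those of all genes, and below the 28.7% and 16.2% of abundant genes. TFRC, the transferrin receptor, rose by 0.35 (SE 0.0455, DESeq2 adjusted p 8.01e-13), and the amino acid carriers SLC38A1 and SLC1A5 by 0.25 and 0.21. ACSF2, an acyl-CoA synthetase of mitochondria, fell by 0.88 (SE 0.172, DESeq2 adjusted p 4.03e-06), GCHFR, which feeds back on GCH1, by 0.30 and FANCD2 by 0.13. GCHFR did not pass in edgeR (adjusted p 0.0668).

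**Figure D5:**
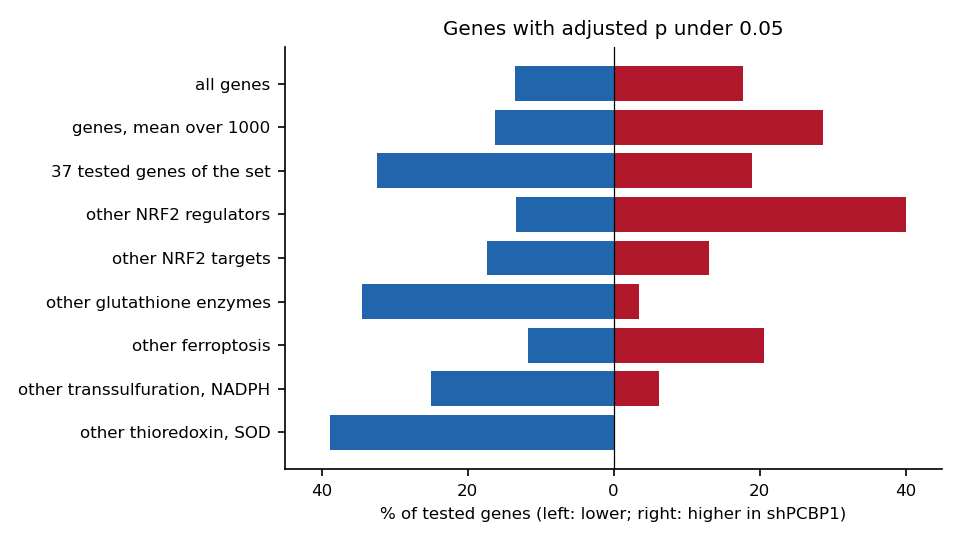
Percentage of tested genes with an adjusted p under 0.05 that were lower (left, blue) or higher (right, red) in shPCBP1, for all genes, for genes with a mean normalized count over 1000, for the 37 genes of the set and for 6 further lists. The set had 18.9% higher and 32.4% lower, against 28.7% and 16.2% among abundant genes, and the thioredoxin and superoxide dismutase list had 7 passing genes, all lower.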

How the data were processed

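Poly-A RNA of 6 libraries, 3 shCtrl and 3 shPCBP1, was quantified by the authors per transcript with Salmon 1.10.2. Per the labels, the genome was hg38, and STAR 2.7.11b is among the tools named. The annotation behind the index and the library strandedness were not given in the sources used here. The estimated counts were deposited without normalization and include fractions of reads. TPM, as the authors deposited it, is scaled on effective transcript length and has an equal sum in every library. Transcripts were matched to GENCODE release 44 on GRCh38 (251612 of 252045), and the 433 unmatched held 0.136% to 0.147% of counts and were left out. Reads of overlapping genes on either strand cannot be separated fully.

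Counts were summed per gene, rounded and, where the sum was at least 10, tested with DESeq2 1.42.0 (two-sided Wald test, size factors by median of ratios, no covariate beside group, R 4.3.3). Missing adjusted p-values were kept as such, and fold changes are unshrunken. Transcripts were tested the same way. Transcript shares (gene TPM of at least 1, mean share 5% to 95%) and non-coding shares (1% to 99%) were tested with limma 3.58.1, with trend, on log2 ratios of TPM with a pseudocount of 0.1. Alternatives were edgeR 4.0.16, TMM factors, length offsets, filters, thinning, a replicate block and leaving out libraries. The tests were checked on simulated data. There both gene tests missed most of the smaller changes, and false calls were a larger part of their calls than the threshold of 0.05 allows. The share tests missed most changes, and the transcript-level DESeq2 test gave many false calls. The transcript-level edgeR test missed nearly all changes. Libraries of a group differed beyond sampling noise (chi-square per degree of freedom 6.48 to 16.4). Total counts per library were 126567836, 83033656 and 140522444 in shCtrl and 85121124, 79189195 and 67066747 in shPCBP1, and precision was lowest for ALOX5.

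The genes, lists and tests were chosen with earlier results of these data known. Per-library counts are given for passing genes with an absolute log2 fold change of at least 0.3 and for 12 genes that stand for roles. Of the further lists, up to 3 rises and 3 falls are named, except for an item that is not reported here.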

Additional observations from a re-analysis of the deposited data

How the results depend on the processing

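Across 15 alternatives for the gene test, 6 of which left out 1 library, 11 of the 19 passing genes passed every time: BLVRB, GCLC, GCLM, SLC3A2, GSTP1, TXN2, PRDX5, TALDO1, CAT, SAT1 and GCH1. The count of genes passing higher was 7, and 4 in edgeR. With transcript length offsets 15 genes passed, 6 higher and 9 lower. Of all genes tested with those offsets, 13.6% passed higher and 10.1% lower. Leaving out 1 library gave 3 to 7 higher and 10 to 13 lower, with 3 higher and 13 lower without shPCBP1 replicate 1 and 4 higher and 12 lower without shCtrl replicate 2, and 16 to 18 in all. The study's thresholds were met by 1 gene, ALOX5, but by 0 after thinning libraries to the smallest total, with the replicate block or without shCtrl replicate 1, where its log2 fold change was -0.99 (adjusted p 0.0294), -1.02 and -0.86, with no adjusted p for the last pair. Leaving out 1 library gave 0 to 1. Transcripts passing numbered 30, and 2 in edgeR, and leaving out 1 library gave 29 to 40. Called shares numbered 1, and 2 with a pseudocount of 1 TPM (SLC3A2-224 added) or with estimated counts in place of TPM (BLVRB-205 added), 0 with no share filter, 0 with the replicate block and 0 to 1 when 1 library was left out. The cause of these changes was not tested.

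No pairing by replicate number was seen, as deviations of same-numbered libraries correlated at 0.0940, -0.0203 and -0.105 over 14181 genes. A pairing that touches few genes would not show in these values, so it is not excluded. The replicate block passed 17 genes, 6 higher and 11 lower.

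Signs reversed for 8 genes that did not pass. The value was -0.0071 for BACH1 with protein-coding genes only, 0.0011 for PRDX6 after thinning, and 0.0195 for PGD and 0.0288 for ME1 with length offsets. Leaving out 1 library gave -0.00405 to 0.0426 for BACH1, -0.049 to 0.00385 for GSS, -0.392 to 0.0569 for SLC7A11, -0.0119 to 0.018 for PRDX6, -0.0481 to 0.00641 for PGD, -0.0561 to 0.00436 for TKT, -0.058 to 0.0533 for ME1 and -0.0652 to 0.0147 for SOD1.

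Depth limits what can be said of HMOX1 and ALOX5, and transcript shares rest on estimates, not on junction reads.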
